A study of Mus musculus with 22 samples.

Results

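The genes described here are the mouse genes of the replication-dependent histone clusters. They were taken as each symbol that begins with Hist1h, Hist2h, Hist3h or Hist4h, which gave 70 of the 55335 genes in the expression table. By the letters that follow, 6 are H1 genes (linker histones, which bind DNA between nucleosomes), and the core histones that form the nucleosome have 20 H2A, 19 H2B, 12 H3 and 13 H4 genes. Of the 70 genes, 3 are annotated as pseudogenes (Hist1h2aj, Hist1h2al and Hist3h2bb-ps).

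The study depleted the histone variant H2A.Z in mouse embryos (B6D2F1) and measured RNA by RNA-seq in 22 libraries, so the comparison asks what early embryos transcribe when H2A.Z is reduced. Control embryos gave 4 libraries at each stage, and H2A.Z KD embryos gave 3 libraries of 2-cell embryos, 3 of morulae and 4 of blastocysts. KD embryos had received about 10 pl of a 20 µM mix of siRNAs against H2A.Z as zygotes, at 20 to 22 h after hCG. How control embryos were treated is not stated for RNA-seq, and the study describes noninjected embryos as controls for its qPCR. Every library pooled 15 whole embryos, taken at 43 to 44 h (2-cell), 78 h (morula) or 94 h (blastocyst) after hCG. In Smart-seq2, as used here, oligo-dT primes the cDNA, which was amplified for 16 to 18 cycles and read as unstranded pairs of 150 bp. The deposited values are FPKM, a level per length of transcript and per total of the library. FPKM carry no read counts, so the depth of each library is unknown, and error is judged from how far libraries of one group differ. The libraries had 10143 to 12090 genes at an FPKM of at least 1.

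Clustered histone genes supply most new histone protein while DNA is replicated. Their mRNAs lack introns and, in most cells, a poly(A) tail: the transcript ends a few bases after a conserved stem-loop, which SLBP binds and next to which the U7 snRNP guides the cut. Transcripts of this kind escape oligo-dT, so the values below describe polyadenylated RNA of these genes (or RNA primed at inner A-rich stretches) and not the whole pool of histone mRNA.

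H2afz, the gene for H2A.Z and the target of the siRNAs, was far lower in KD embryos. In 2-cell controls its FPKM were 1244, 1236, 905 and 1178, against 415, 139 and 112 in KD embryos. Morula controls had 1158, 1336, 1511 and 1421 and KD morulae 30.3, 25.7 and 29.0. In blastocysts the values were 2656, 2431, 1945 and 2055 for control and 64.2, 67.2, 53.2 and 57.6 for KD. No KD library reached the lowest control library of its stage. By limma, the log2 fold change of FPKM + 1 was -5.41 (SE 0.17, adjusted p = 9.71e-08) in morulae and -5.19 (SE 0.20, adjusted p = 3.63e-08) in blastocysts, whereas in 2-cell embryos it was -2.53 (SE 0.38, adjusted p = 0.543), which did not pass the test across all genes. The p-values here measure the spread between libraries of pooled embryos.

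Stage markers matched the labels. Summed FPKM of 5 markers of 2-cell embryos lay between 328 and 595 in 2-cell controls and between 0.428 and 3.36 in control blastocysts, and Tcstv3 was the most abundant of them. For 5 trophectoderm markers, led by the keratin gene Krt18, the sums were 1.34 to 3.73 in 2-cell controls and 981 to 1468 in control blastocysts. KD blastocysts had 571 to 765 for the trophectoderm markers and 4.09 to 27.8 for the 2-cell markers, outside the control range in each case. For 5 markers of morulae and blastocysts, led by Nanog, the sums were 153 to 181 in control and 52.6 to 65.9 in KD morulae. The mean of Nanog was 105.6 in control and 20.7 in KD morulae. By limma, 1 of the 3 markers tested passed as lower there, and the median log2 fold change of the 3 was -0.49. Oocyte and maternal transcripts (4 genes, led by Oosp1 in 2-cell embryos) summed to 729 to 990 in 2-cell controls and 1.71 to 2.17 in control blastocysts. Markers of cumulus or granulosa cells (6 genes) summed to at most 0.152 in any library, and those of spermatids or testis (4 genes) to at most 1.33.

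The 70 genes lie in 4 clusters on GRCm38: 56 Hist1 genes on chromosome 13, 10 Hist2 genes on chromosome 3 (chr3:96219865-96270132), 3 Hist3 genes on chromosome 11 (chr11:58948920-58956830) and Hist4h4 on chromosome 6 (chr6:136801553-136804415). Within Hist1 the pseudogene Hist1h2al stands far from the rest at chr13:51202727-51203065. Many of these genes are near copies of each other, and how StringTie divided reads between copies is not stated. Of all windows of 150 bases in the GENCODE vM21 transcripts, every window was shared with another gene for 5 members, at least 50% were shared for 25, and none for 15. The most abundant members, Hist1h2ap and Hist1h2ao, shared 91.0% and 91.5% of windows, mainly with other H2A genes, so their separate values are uncertain and their sum is firmer. Hist1h2bc (17.4%), Hist1h4i (2.1%), Hist1h4d (0%) and Hist1h1b (0%) were largely unique. Exons of 26 members overlap another gene, most often an annotated miRNA on the opposite strand. Because the libraries are unstranded, reads from the overlapping gene cannot be told apart.

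The stem-loop itself was looked for in every annotated transcript, as a 6-base stem starting with GG around a 4-base loop starting with TTT. It was found in 44 of the 70 members (62.9%) and in 79 of all 55450 genes (0.142%). Only an exactly paired stem counted, and several models without a match are short, such as Hist1h4k (312 bases) and Hist1h2bl (381 bases). No match therefore does not show that a gene lacks the stem-loop, since the model may end before it. The sequence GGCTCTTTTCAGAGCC was shared by 26 members of the H1, H2A, H2B and H3 classes, and 7 H4 genes carried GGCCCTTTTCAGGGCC. For the members that stand out below, each stem-loop is printed 5′ to 3′ in capitals with up to 5 transcript bases on either side, to show how little it differs between genes of unlike level:
Hist1h2ap: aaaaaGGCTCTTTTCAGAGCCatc
Hist1h2ae: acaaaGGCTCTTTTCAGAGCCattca
Hist1h2bg: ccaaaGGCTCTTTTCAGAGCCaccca
Hist1h2bk: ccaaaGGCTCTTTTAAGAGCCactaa
Hist2h3c2: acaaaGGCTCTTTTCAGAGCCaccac
Hist1h4i: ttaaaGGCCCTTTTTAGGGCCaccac
Hist1h4d: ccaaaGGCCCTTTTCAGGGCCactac
These come from GENCODE vM21 transcripts. The genes are Hist1h2ap (chr13:21833026-21833507, minus strand), Hist1h2ae (chr13:23570517-23571220, minus), Hist1h2bg (chr13:23571396-23572013, plus), Hist1h2bk (chr13:22035870-22036345, plus), Hist2h3c2 (chr3:96238108-96239127, minus), Hist1h4i (chr13:22040636-22041362, minus) and Hist1h4d (chr13:23581598-23582735, plus).

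Where the annotated transcript ends differs widely. After the stem-loop it goes on for 3 bases in Hist1h2ap, 151 in Hist1h2ae, 330 in Hist1h4i, 770 in Hist1h4d and 4884 in Hist1h1d, with a median of 112.5 over the 44 members. The signal AATAAA or ATTAAA was in the last 60 transcript bases of 11 of the 22 members with over 100 bases after the stem-loop, of 2 of the 22 with at most 100, and of 4 of the 26 with no match. Short models were not the low ones: in control blastocysts, the median of mean FPKM was 2.27 for the 22 members ending within 100 bases, 0.960 for those ending later and 1.5 for those with no match. The highest mean in these 3 groups belonged to Hist1h2ap (140.6), Hist1h2ae (43.1) and Hist1h2bc (76.0), respectively. FPKM depend on the length of the model, so these levels move with where an annotated end is placed.

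In control embryos, polyadenylated RNA of the clusters was higher at each later stage. Summed FPKM of the 70 genes were 111, 82.8, 80.0 and 81.5 in the 2-cell libraries, 375, 353, 366 and 322 in morulae and 556, 571, 696 and 808 in blastocysts. The 3 stages did not overlap, and the mean was 3.98 times as high in morulae as in 2-cell embryos and 1.86 times as high in blastocysts as in morulae. Even so, the clusters held 0.0172% to 0.0245% of the total FPKM of a 2-cell control library and 0.0769% to 0.121% of a control blastocyst library. In bulk libraries, fewer cells with a transcript and less RNA per cell cannot be told apart. The same holds for the number of cells, which grows from stage to stage while a library stays at 15 embryos.

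The 5 classes did not follow the same course. H2A sums went from 61.9 ± 13.9 (SD, n = 4) in 2-cell controls to 316 ± 23.7 in morulae and 435 ± 116 in blastocysts, 5.11 and then 1.37 times the stage before. The second step overlapped between libraries. H2B went the other way round, with 6.15 ± 0.646, 5.72 ± 0.908 and 113 ± 17.2, a ratio of 0.929 between the early stages (overlapping) and of 19.7 from morulae to blastocysts. H3 resembled H2B at lower levels, at 3.69 ± 0.776, 2.89 ± 0.753 and 17.9 ± 1.53. H4 sums were 10.9 ± 1.85, 14.4 ± 1.54 and 54.2 ± 12.1, and H1 sums 6.17 ± 2.21, 14.4 ± 4.87 and 37.8 ± 16.2. Nucleosomes hold the 4 core histones in equal number, yet in control morulae the H2A sum of polyadenylated RNA was at least 287 and the H2B sum at most 7.07. Whether the step of one class differed from that of another was not tested.

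**Figure D1:**
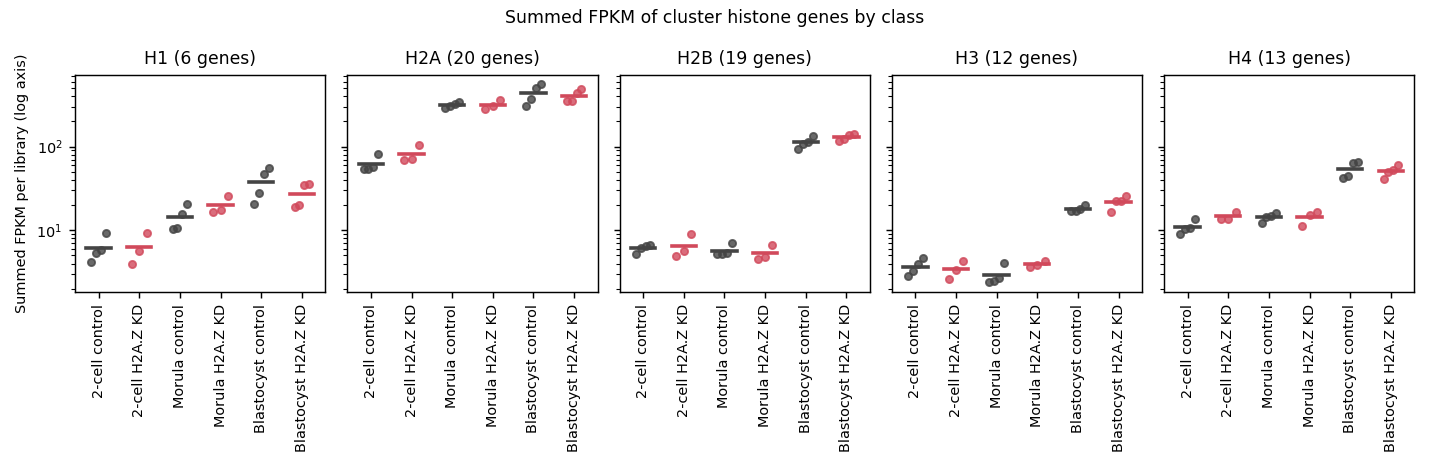
Summed FPKM of each histone class in every library (points, log axis) with the group mean (line), for control (grey) and H2A.Z KD (red) embryos. H2A is high from the morula on, at 287 to 343 in control morulae, while H2B stays at 5.14 to 7.07 there and reaches 95.0 to 136 in control blastocysts, and KD and control points overlap for every class and stage except H4 in 2-cell embryos.

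Single genes carried most of some classes. Hist1h2bc gave 67.5% of the H2B sum in control blastocysts and Hist1h4i 54.0% of the H4 sum, and Hist1h1b, which encodes linker histone H1.5, gave 83.5% of the H1 sum. In 2-cell controls Hist1h1a (linker histone H1.1) led the H1 genes with 59.6%. Hist1h2ap and Hist1h2ao together with Hist1h2ag led the H2A genes in all 6 groups. Without its most abundant member, the H1 ratio from 2-cell embryos to morulae was 0.701 in place of 2.33, the H4 ratio 2.88 in place of 1.32, and the H2B ratio 0.562 in place of 0.929. From morulae to blastocysts, H2B without Hist1h2bc still had a ratio of 12.3. The H3 class had no such gene: Hist1h3g led in control blastocysts with 20.5%.

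Most members were low. None was at 0 in all 22 libraries, 58 reached 1 FPKM in at least 1 library, 13 reached 10, and 12 stayed under 1 throughout. In every library of the group, at least 1 FPKM was found for 8 members in 2-cell controls, 15 in control morulae and 37 in control blastocysts, and for 9, 18 and 34 members in the matching KD groups. Among the low genes are those for testis variants, which replace other histones during spermatogenesis. Hist1h1t (linker histone H1t) was at 0 in all control 2-cell and morula libraries and at 0.518, 0.222, 0.321 and 0.238 in control blastocysts. Hist1h2ba, which encodes the H2B variant TH2B that oocytes and early embryos also hold, had 0.738, 0.664, 1.24 and 0.139 in 2-cell controls and 0 in control morulae. Its partner Hist1h2aa (TH2A) had 0.761, 0.465, 1.13 and 0.684 and 0.767, 0.226, 1.05 and 1.02 in those groups. These 3 genes were named after their values were seen, and they were too low to enter most tests.

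**Figure D2:**
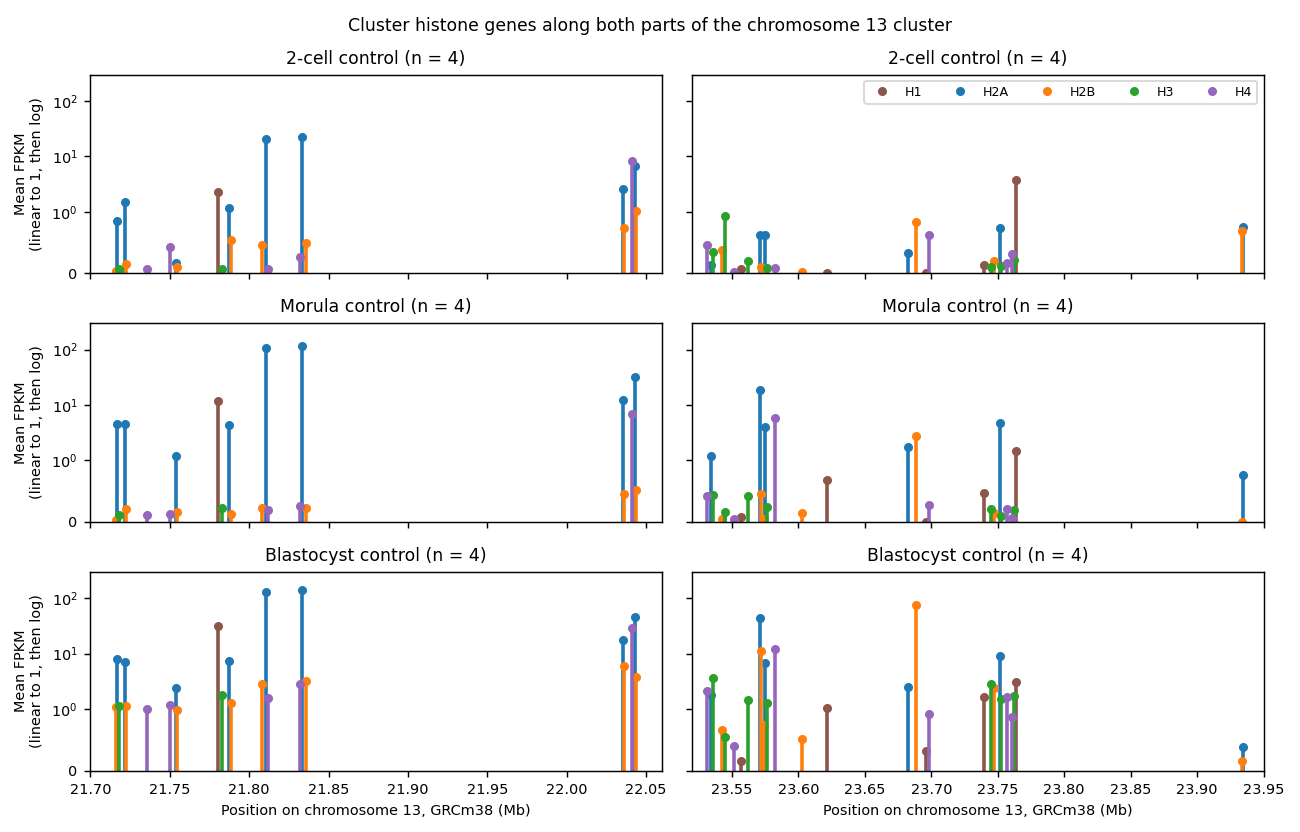
Mean FPKM (linear to 1, then log axis) of each Hist1 gene along both parts of the chromosome 13 cluster in the 3 control groups, coloured by class, with Hist1h2al at 51 Mb not drawn. H2A genes stand above their H2B neighbours in morulae, except for Hist1h2ac (mean 1.73) beside Hist1h2bc. At 23.68 Mb Hist1h2bc rises from a mean of 2.73 in control morulae to 76.0 in control blastocysts.

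From the 2-cell to the morula stage, most of the members that rose were H2A genes, as were most of those tested. Of the 70 members, 21 passed the filter on low values (FPKM of at least 1 in at least 3 of the libraries compared). By limma, 14 of them rose in control morulae, with the adjusted p below 0.05 and more than 1 log2 unit of change, where 32.1% of all genes tested rose. None fell, against 30.1% of all genes, and 2 of the members with a negative change had an unadjusted p under 0.05. The rising genes were 12 of 15 H2A genes tested, 1 of 2 H1 genes (Hist1h1b) and 1 of 2 H4 genes (Hist1h4d), and 0 of 1 H2B and 0 of 1 H3 genes tested rose. Whether the classes differ was not tested. The median log2 fold change was 1.29 over the members tested and 0.10 over all genes tested. In 17 of the members tested, each control morula library lay above each control 2-cell library, as in 40% of all genes tested. Members such as Hist1h2ae and Hist1h4d, under 1 FPKM in every 2-cell control, entered through the morulae and could hardly fall, so these counts are partly set by the filter. With no filter on low values, 14 of 69 members rose and 0 fell, beside 4377 and 4206 of all 37322 genes. The median was then 0.05, beside -0.02 over all genes. Without 2-cell control replicate 1, the count of members that fell was 1.

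On the scale of log2(FPKM + 1), Hist1h2ae had the largest change. Its FPKM were 0.835, 0.669, 0.431 and 0.555 in 2-cell controls and 9.74, 20.1, 27.0 and 18.6 in control morulae, a log2 fold change of 3.51 (SE 0.29, adjusted p = 2.89e-07). Hist1h4d, an H4 gene that shares no window with another gene, went from 0.0800, 0.111, 0.109 and 0.0310 to 3.09, 4.41, 8.76 and 7.14, a change of 2.55 (SE 0.27, adjusted p = 2.19e-06). With pseudocount 0.1 the order turned, with 4.64 for Hist1h2ae and 4.91 for Hist1h4d. In both genes the stages were far apart although the morula libraries spread almost 3-fold. Hist1h2ap had 28.8, 18.7, 19.9 and 22.3 in 2-cell controls and 129, 112, 116 and 109 in morulae, with a change of 2.33 (SE 0.18, adjusted p = 1.37e-07). Its near copy Hist1h2ao changed by 2.30, Hist1h2ag by 2.14 and Hist1h2ah by 1.89. Smaller rises were found for Hist1h2ab (1.70), Hist1h2ad (1.59) and Hist1h2ai (1.57). Reads can pass between these H2A paralogs, so the 12 calls are not 12 separate observations. Hist1h1b rose from 1.94, 4.03, 1.63 and 1.54 to 8.14, 17.3, 12.6 and 8.69, a change of 1.93 (SE 0.29, adjusted p = 5.83e-05). Hist1h1a, the other abundant H1 gene, was lower in morulae (2.04, 5.15, 4.02 and 3.51 against 1.13, 2.15, 1.80 and 0.872), and its change of -0.89 did not pass the limit on size.

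From the morula to the blastocyst, most of the members that rose were H2B, H3 and H4 genes. Of 40 members that passed the filter, 20 rose by limma and 0 fell, where 13.4% of all genes tested rose and 12.9% fell. Of the members at an unadjusted p under 0.05, 35 were higher and 0 lower, and 7253 of all 11849 genes tested were at that p in either direction. Rises were found in 7 of 8 H2B, 5 of 7 H3 and 5 of 7 H4 genes tested, and in 2 of 15 H2A and 1 of 3 H1 genes (Hist1h1b). The H2A share was near that of all genes tested. These counts depend on the filter: 0 H3, 1 H2B and 2 H4 genes reached 1 FPKM in any control morula library, so the others of these classes were tested because they were high in blastocysts and could hardly show a fall. The median log2 fold change was 1.00 over the members tested and -0.03 over all genes tested. With no filter, 19 of 70 members rose and 0 fell, beside 1571 and 1487 of all 34210 genes. The median was then 0.64, beside 0.00 over all genes. Blastocyst controls lay wholly above morula controls in 30 of the members that passed the filter, as in 27.8% of all genes tested, a count that the filter shapes in the same way. The same control morulae serve both stage comparisons.

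Hist1h2bc, an H2B gene whose annotated transcript is 1156 bases long and holds no stem-loop match, rose most. It went from 2.41, 1.43, 4.24 and 2.82 in control morulae to 91.3, 62.7, 72.5 and 77.4 in control blastocysts, a log2 fold change of 4.33 (SE 0.24, adjusted p = 9.88e-08). Hist1h2bg rose from 0.452, 0.375, 0.477 and 0.484 to 13.4, 8.81, 9.99 and 12.4, a change of 2.98 (SE 0.18, adjusted p = 1.61e-07). The blastocyst libraries of either gene spread less than 2-fold, far under the distance between stages. Hist3h2a, an H2A gene on chromosome 11, had 1.82, 0.598, 1.25 and 0.711 in control morulae and 8.59, 8.55, 10.3 and 9.76 in control blastocysts, a change of 2.27 (SE 0.18, adjusted p = 1.25e-06). Its exons overlap Trim17 on the same strand, whose mean went from 0.369 to 3.15. Further H2B rises were Hist1h2bk (2.20), Hist1h2br (1.73), Hist1h2bq (1.61) and Hist1h2bj (1.59).

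Hist1h4i, the main H4 gene, overlapped between the early stages, with 10.7, 7.52, 7.99 and 6.91 in 2-cell and 7.80, 7.62, 4.29 and 7.27 in morula controls. It then rose to 36.1, 22.5, 21.0 and 37.7 in blastocysts, a change of 1.87 (SE 0.25, adjusted p = 6.81e-05). Of the H3 genes, Hist1h3g went from 0.731, 0.352, 0.417 and 0.273 to 3.90, 3.82, 3.78 and 3.12, a change of 1.65 (SE 0.15, adjusted p = 2.99e-06). Hist1h3c went from 0.524, 0.0820, 0.0930 and 0.146 to 3.03, 2.79, 2.39 and 3.17, a change of 1.63 (SE 0.15, adjusted p = 4.36e-06). Both H3 genes were under 1 FPKM in every control morula library. Hist1h4n, which shares 77.2% of windows with Hist1h4m, had 0.256 ± 0.0658 (SD, n = 4) in control morulae and 2.84 ± 0.405 in blastocysts. Some rises rested on 1 library. The change of Hist1h1b was 1.21 (adjusted p = 0.00944) and came to 1.00 without Blastocyst control replicate 6, and that of Hist1h2ae was 1.14 (adjusted p = 0.00391) and came to 0.81 without Morula control replicate 1. Neither passed then. Hist1h1b did not pass with no filter either, although its change was still 1.21. Hist1h2ap, in contrast to its rise before, had a change of 0.12 with an adjusted p of 0.597.

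Neighbouring H2A and H2B genes differed in level although they start from one shared stretch of DNA. There were 14 pairs of an H2A and an H2B gene on opposite strands whose starts lie 173 to 306 bases apart. In each of the 6 groups the H2A gene had the higher mean FPKM in 13 of the 14 pairs, and the exception was Hist1h2ac with Hist1h2bc. In 2-cell embryos many of these values were near 0, since either mean reached 1 FPKM in 6 of the 14 pairs in controls and 7 in KD embryos. It did so in 13 pairs in each later group. For Hist1h2ap and Hist1h2br, the means in control morulae were 116 and 0.228, and in control blastocysts 141 and 3.24. For Hist1h2ae and Hist1h2bg they were 18.9 and 0.447, then 43.1 and 11.1. For Hist1h2ac and Hist1h2bc they were 1.73 and 2.73, then 2.48 and 76.0. Such means set 2 genes side by side per length, and the lengths come from the annotated models. Many of these genes also share windows with others of their class, such as Hist1h2ap (91.0%), Hist1h2ai (86.1%) and Hist1h2an (72.5%). Reads can pass between them, so the 13 pairs are not separate observations. Hist1h2aj and Hist3h2bb-ps, each in a pair, are annotated as pseudogenes.

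Promoter sequence was compared in 300-base windows, 250 before and 50 after each start, from RefSeq on GRCm38.p6, where 62 of the 70 members matched an entry. Letters were searched on both strands. CCAAT was found in 53 of the 62 (85.5%) and in 37.9% of all 27018 promoters: in every H1, H2A, H2B and H3 promoter matched and in 3 of 12 H4 promoters (25.0%). TATAAA was found in 56.5% of members and 14.2% of all promoters. The octamer ATTTGCAT was found in 13 members (21.0%) and in 1.75% of all promoters, and lay in 7 of 18 H2A and 6 of 16 H2B promoters and in 0 of the other classes. The members are not separate sites, since Hist1h2aa and Hist1h2ba, Hist1h2ae and Hist1h2bg, and Hist1h2ah and Hist1h2bk are divergent pairs with overlapping windows. Sites for the other motifs can count in both genes of a pair in the same way. A match is a description and shows no binding. Stretches between the starts of 3 pairs are printed to let the shared promoters of these unequal genes be read, 5′ to 3′ on the plus strand, from RefSeq (GRCm38.p6), with matches to these 3 motifs on either strand in capitals:
Hist1h2ae and Hist1h2bg: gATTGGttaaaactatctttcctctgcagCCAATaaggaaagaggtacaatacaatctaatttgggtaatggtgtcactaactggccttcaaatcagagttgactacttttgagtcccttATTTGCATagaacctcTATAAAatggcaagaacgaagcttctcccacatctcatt
Hist1h2ac and Hist1h2bc: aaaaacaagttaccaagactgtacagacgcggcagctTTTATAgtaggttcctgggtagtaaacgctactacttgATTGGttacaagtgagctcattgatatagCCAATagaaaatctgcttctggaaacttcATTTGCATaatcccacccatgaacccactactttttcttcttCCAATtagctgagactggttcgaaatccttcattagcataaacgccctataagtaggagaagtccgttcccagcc
Hist1h2ap and Hist1h2br: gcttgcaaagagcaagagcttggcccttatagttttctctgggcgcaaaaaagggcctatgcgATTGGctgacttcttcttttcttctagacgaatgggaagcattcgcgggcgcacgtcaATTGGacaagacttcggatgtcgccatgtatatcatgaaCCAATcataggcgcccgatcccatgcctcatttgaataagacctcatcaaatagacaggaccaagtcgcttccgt
The H2A gene of each pair reads to the left, on the minus strand. The stretches are chr13:23571221-23571395 (175 bases), chr13:23683949-23684198 (250 bases) and chr13:21833508-21833742 (235 bases). The Hist1h2ae and Hist1h2bg stretch holds 2 CCAAT, 1 TATAAA and 1 ATTTGCAT. That of Hist1h2ac and Hist1h2bc, the pair with the H2B gene on top, holds 3, 1 and 1. That of Hist1h2ap and Hist1h2br holds 3 CCAAT and neither of the other motifs.

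In KD 2-cell embryos, no histone gene of the clusters passed the test. Since H2afz, the target of the siRNAs, did not pass at this stage either, a count of 0 cannot show that members were unchanged. By limma, 0 of 16 members tested were higher and 0 lower, as were 0% and 0% of all 12160 genes tested. At an unadjusted p under 0.05 there were 3 members and 701 genes. These 3 had positive changes: Hist1h4i at 0.61, Hist1h2ap at 0.49 and Hist1h2ao at 0.45 (adjusted p = 0.828 for each). Hist1h4i had 11.5, 14.1 and 11.9 in KD embryos, all above the control values of 10.7, 7.52, 7.99 and 6.91, and 2.65% of all genes tested were above in the same way. Because Hist1h4i makes up most of the H4 sum, that sum was 1.34 times the control and did not overlap with it, and without Hist1h4i the ratio was 0.817. The sum over all 70 genes was 96.5, 134 and 106 in KD embryos, 1.26 times the control mean and overlapping. The median change was 0.19 over the members tested and 0.00 over all genes tested.

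In KD morulae, where other genes did pass, no member passed either. By limma, 0 of 20 members tested were higher and 0 lower, where 0.992% of all genes tested were higher and 2.53% lower. At an unadjusted p under 0.05 was 1 member, beside 3352 of all 10989 genes tested. That member was Hist1h1a, with 1.13, 2.15, 1.80 and 0.872 in control and 2.28, 2.93 and 1.85 in KD morulae and a change of 0.52 (SE 0.21, adjusted p = 0.128). Hist1h2ap had 104, 113 and 136 in KD morulae against 129, 112, 116 and 109 in controls. Its change of 0.13 had an SE of 0.15. The class sums overlapped between KD and control, with ratios of 1.00 for H2A, 1.38 for H1 and 1.37 for H3. With FPKM scaled between libraries the H3 ratio was 1.53 and did not overlap, and the ratios of H2B and H4 went from 0.932 and 0.987 to 1.03 and 1.09. In this comparison the median change of all genes tested was 0.02 after scaling and -0.09 with FPKM as deposited. The median over the members tested was 0.14 after scaling and 0.03 with FPKM as deposited.

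In blastocysts, where most members were measurable, KD changed 1 of them. Of 51 members tested by limma, 1 was higher and 0 lower, where 6.06% of all genes tested were higher and 7.69% lower. At an unadjusted p under 0.05 were 9 members, beside 5439 of all 11828 genes tested. The median change was -0.09 over the members tested and 0.00 over all genes tested. Whether members differ from other genes was not tested. In Hist1h3g, the most abundant H3 gene, each KD library was above each control library. In the most abundant gene of the H1, H2A and H2B classes KD and control libraries overlapped: Hist1h2ap had 156, 160.5, 114 and 107 in KD and 93.0, 109, 177 and 184 in control blastocysts. Hist1h2bc had 113, 98.9, 93.4 and 82.5 in KD against 91.3, 62.7, 72.5 and 77.4, and Hist1h1b had 16.0, 28.5, 11.7 and 28.8 against 23.7, 40.6, 15.2 and 46.7, with adjusted p of 0.172 and 0.31. Summed over the 70 genes, KD blastocysts had 657, 745, 568 and 581, 0.970 times the control mean. The ratio of the H2B sum, 1.15 with every member, was 0.895 without Hist1h2bc. The KD blastocysts differ from controls in the trophectoderm and 2-cell markers given above, and the part of this in the histone values was not tested.

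The gene that rose was Hist2h3c2, an H3 gene on chromosome 3. Control blastocysts had 0.230, 1.46, 0.699 and 0.920 and KD blastocysts 1.95, 3.22, 2.62 and 3.94, so each KD library was above each control library. The gene passed the filter through the KD libraries, since 1 of 4 controls reached 1 FPKM. The log2 fold change was 1.13 (SE 0.22, adjusted p = 0.00217). Without Blastocyst control replicate 1, the lowest control, the change was 0.98 and 0 members were called. The change between stages was not itself shown to differ, since the KD effect in blastocysts minus that in morulae was 0.73 (SE 0.31, adjusted p = 0.136). In morulae Hist2h3c2 was too low to be tested, at 0.366, 0.516, 0.473 and 0.0280 in control and 0.738, 1.04 and 0.277 in KD embryos.

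Neighbours of Hist2h3c2 had changes of either sign. Hist2h2ac, an H2A gene of the cluster that shares no window with another gene, had 2.26, 4.37, 2.95 and 3.73 in control and 2.32, 3.39, 0.913 and 2.88 in KD blastocysts, overlapping, with a change of -0.38 (SE 0.27, adjusted p = 0.291). Hist2h2be, an H2B gene, was too low to be tested, with a mean of 0.201 in either group. Hist2h2aa1, an H2A gene of the same cluster, had 0.562, 0.908, 0.901 and 0.754 in control and 1.80, 1.96, 2.11 and 4.71 in KD blastocysts, a change of 0.97 (SE 0.22, adjusted p = 0.00442) that just missed the limit on size. It passed without Blastocyst H2A.Z KD replicate 1 (1.06), 4 (1.04) or 5 (1.06), which made the count 2. Without Blastocyst H2A.Z KD replicate 6 the change was 0.74, and without any 1 control library it was 0.94 to 0.99. Hist2h3c1 had 0.645, 0.569, 0.339 and 1.16 and 0.979, 2.19, 1.70 and 2.19, a change of 0.71 (SE 0.20, adjusted p = 0.0157). Both genes passed the filter through the KD libraries as well. With no filter the adjusted p was 0.0705 for Hist2h3c1, 0.0341 for Hist2h2aa1 and 0.0233 for Hist2h3c2. In morulae Hist2h3c1 had 0.380, 0.167, 0.324 and 0.206 in control and 0.461, 0.968 and 0.742 in KD libraries, apart but below the filter, while in blastocysts the groups overlap. Hist2h3c2, Hist2h3c1 and Hist2h2aa1 are not each measured apart from their copies. Every window of Hist2h2aa1 is found in other genes (Hist2h2aa2, Gm20632, Gm20633 or Gm20634). The same holds for every window of Hist2h3c1 and 59.4% of those of Hist2h3c2, which they share with each other, Hist2h3b, Gm20628 or Gm20634. For that reason the 3 H3 genes of the cluster (Hist2h3b, Hist2h3c1, Hist2h3c2) were summed, a step chosen after their values were seen.

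The summed FPKM of these 3 genes were 0.893, 2.48, 1.57 and 2.46 in control blastocysts and 3.42, 6.43, 5.03 and 6.84 in KD blastocysts. With Gm20628 and Gm20634 added, they were 1.59, 3.28, 2.14 and 3.54 and 4.55, 8.62, 6.78 and 9.37, and the groups were apart in both sums. The genes differ in length, so a sum of FPKM still depends on how reads were divided, and other divisions were not tested. In control and KD morulae the sums of the 3 genes were 1.13, 0.830, 0.906 and 0.259 and 1.51, 2.18 and 1.07, which overlap. With Gm20628 and Gm20634 added, control morulae had 1.52, 1.07, 1.30 and 0.557 and KD morulae 1.92, 2.97 and 1.66. These sums do not overlap. Of the annotated transcripts on the opposite strand, the miRNA entry Gm47313, inside Hist2h2aa1, had 0.884, 1.94, 1.36 and 1.25 in control and 3.98, 5.60, 3.32 and 5.75 in KD blastocysts, which do not overlap. The antisense entries Gm20633, opposite Hist2h2aa1, and Gm20632, opposite Hist2h2aa2, were apart as well, with 0.162, 0.326, 0.228 and 0.194 against 0.530, 0.984, 0.605 and 1.01 and 0.185, 0.288, 0.288 and 0.251 against 0.710, 1.20, 0.597 and 1.29. So was Gm20634, opposite Hist2h3c2 without overlap of exons, with 0.522, 0.529, 0.384 and 0.865 against 0.963, 1.78, 1.49 and 2.33. Gm20634 lies on the same strand as Hist2h2aa1 and Hist2h3c1 and overlaps their exons. In other entries the blastocyst groups overlapped: Gm47311, opposite Hist2h2aa2, had 1.06, 0.152, 0.906 and 1.29 in control and 3.92, 5.71, 0.724 and 5.65 in KD blastocysts, and Gm20628, opposite Hist2h3b, 0.180, 0.265, 0.188 and 0.216 and 0.171, 0.415, 0.257 and 0.202. Morula KD libraries were wholly above controls in Gm47313 (0.964 to 2.13 against 0.398 to 0.578) and Gm20633 (0.259 to 0.307 against 0.068 to 0.109). So they were in Gm20632 (0.211 to 0.361 against 0.095 to 0.149) and Gm20634 (0.353 to 0.758 against 0.176 to 0.307). Gm47311 was apart there too (0.981 to 1.5 against 0.533 to 0.632), while Gm20628 was wholly below (0.007 to 0.062 against 0.066 to 0.132). Of all genes tested, 6.7% were wholly above and 22.9% wholly below in KD morulae, and 14.6% and 20% in KD blastocysts. These entries were picked after values were seen. They overlap or share windows with the same few histone genes, so they are not separate observations. Which strand the RNA came from cannot be told apart in unstranded libraries.

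Other members passed the adjusted p but not the limit on size in KD blastocysts. Hist1h2bk, an H2B gene, had 7.51, 5.38, 5.66 and 5.22 in control and 2.68, 4.24, 1.99 and 2.17 in KD blastocysts, wholly below, with a change of -0.89 (SE 0.23, adjusted p = 0.0107). It passed without Blastocyst H2A.Z KD replicate 4 (-1.08), which made the count of lower members 1. For this gene the change was smallest without Blastocyst control replicate 1 (-0.75) or Blastocyst H2A.Z KD replicate 5 (-0.75). With no filter its adjusted p was 0.0551. Hist1h3c had 3.03, 2.79, 2.39 and 3.17 against 1.48, 1.12, 2.63 and 0.858, a change of -0.65 (SE 0.20, adjusted p = 0.0244). The adjusted p was above 0.05 with no filter (0.079) and without Blastocyst control replicate 1 (0.0596), Blastocyst control replicate 6 (0.0567), Blastocyst H2A.Z KD replicate 4 (0.0566) or Blastocyst H2A.Z KD replicate 6 (0.0812). Hist1h3d had 1.11, 0.881, 1.38 and 1.71 against 1.83, 1.64, 2.99 and 2.55, a change of 0.51 (SE 0.17, adjusted p = 0.0361). This adjusted p was above 0.05 with no filter (0.0746), with FPKM as deposited (0.0573) and without Blastocyst control replicate 1 (0.0666), Blastocyst control replicate 4 (0.119), Blastocyst control replicate 5 (0.0623), Blastocyst H2A.Z KD replicate 5 (0.0783) or Blastocyst H2A.Z KD replicate 6 (0.0913). KD libraries were wholly above controls in Hist1h3g, Hist2h2aa1 and Hist2h3c2, as in 14.6% of all genes tested, and wholly below in Hist1h2bk, as in 20% of them.

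**Figure D3:**
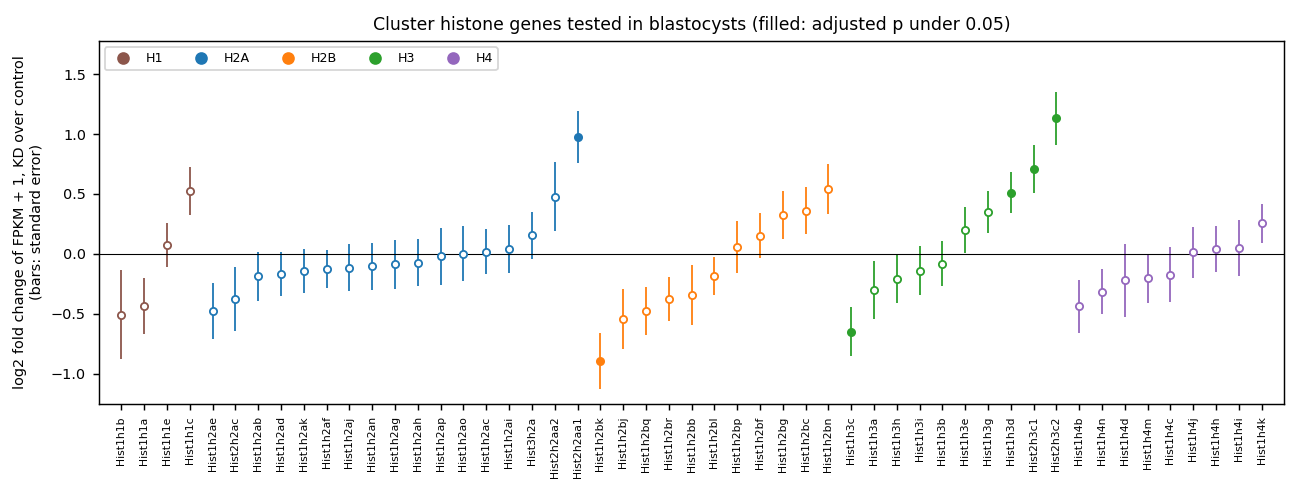
Log2 fold change of FPKM + 1, KD over control blastocysts (4 libraries each), for the 51 cluster histone genes tested, with standard errors, ordered within each class (filled, adjusted p under 0.05). Hist2h3c2 at 1.13 is beyond the limit of 1, and Hist1h2bk at -0.89 is the lowest.

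A single fit over morulae and blastocysts compared the KD effect between the stages. Here the adjusted p alone decided, with no limit on size. By limma, 0 of 52 members tested were higher and 0 lower, where 5.43% of all genes tested were higher and 6.32% lower. There were 9 members at an unadjusted p under 0.05, beside 3480 of all 12727 genes tested. The median difference was -0.17 over the members tested and -0.01 over all genes tested, the latter being 0.11 with FPKM as deposited. The count of members with a lower effect in blastocysts was 1 without Morula control replicate 2 and 4 without Blastocyst H2A.Z KD replicate 4. It was 2 with replicate number as a block within stage. Hist1h1b had the most negative difference, -1.13 (SE 0.52, adjusted p = 0.171).

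Genes that act on histone mRNA were compared as a list of 26 symbols, 24 of which were in the table. From 2-cell to morula controls, 2 of 20 tested rose and 6 fell, where 32.1% and 30.1% of all genes tested did, and the median was -0.38 beside 0.10. The share that fell was thus that of all genes. Slbp, which binds the stem-loop, had 176, 179, 232 and 278 in 2-cell, 101, 126, 136 and 156 in morula and 153, 152, 122 and 123 in blastocyst controls. No change of it passed both limits. Npat, the coactivator that turns on histone genes at S phase, fell by 1.85 on the log2 scale (adjusted p = 1.17e-06), from 17.0, 20.7, 13.9 and 16.1 to 4.07, 3.75, 3.88 and 3.96. Casp8ap2, whose product FLASH works with the U7 snRNP, fell by 2.64 (adjusted p = 2.28e-08), from 66.1, 62.0, 62.1 and 58.5 to 10.6, 10.8, 8.69 and 7.0. Cpsf3, which encodes the endonuclease that cuts histone pre-mRNA, rose by 3.87 (adjusted p = 8.21e-08), and Cstf2, another subunit of the cleavage machinery, by 1.44.

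Lsm10, a subunit of the U7 snRNP, changed with stage and with KD. Its FPKM were 67.9, 76.8, 46.0 and 46.8 in 2-cell, 5.36, 4.20, 5.44 and 5.45 in morula and 40.3, 52.2, 34.6 and 34.7 in blastocyst controls. The changes were -3.27 (SE 0.23, adjusted p = 6.04e-08) and then 2.66 (SE 0.18, adjusted p = 3.63e-07). In KD embryos it had 1.99, 3.31 and 2.33 in morulae and 11.1, 14.5, 9.16 and 12.2 in blastocysts, below every control of the stage. The KD change was -1.69 (SE 0.21, adjusted p = 0.000124) in blastocysts. In morulae it was -0.70 (SE 0.18, adjusted p = 0.0327), which missed the limit on size. The difference between the stages was -1.02 (SE 0.29, adjusted p = 0.0316), and this call was lost with pseudocount 0.1 (-0.92) and when any 1 of these libraries was left out: Morula control replicate 1 (-0.99), Morula control replicate 2 (-0.95), Morula H2A.Z KD replicate 2 (-0.85), Morula H2A.Z KD replicate 6 (-1.03), Blastocyst control replicate 1 (-0.96), Blastocyst control replicate 4 (-0.91) and Blastocyst H2A.Z KD replicate 5 (-0.86). Its partner Lsm11 stayed near or under 1 FPKM and entered no test. Zfp473, also of the U7 snRNP, had 0.328, 0.971, 0.405 and 0.834 in control and 0.0580, 0.0550 and 0.0840 in KD morulae, too low to be tested there.

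Of the same list, 1 of 20 genes tested was higher in KD blastocysts (Ccne1) and 1 lower (Lsm10), beside 6.06% and 7.69% of all genes tested. In 2-cell embryos and morulae limma called 0 in either direction (0 and 5 genes at an unadjusted p under 0.05, beside 701 of 12160 and 3352 of 10989 genes). Ccne1, the cyclin E1 gene whose product drives entry into S phase with Cdk2, had 13.7, 37.4, 42.0 and 32.0 in control and 95.5, 54.1, 87.4 and 75.1 in KD blastocysts, a change of 1.38 (SE 0.27, adjusted p = 0.00222). Its KD effect in blastocysts minus that in morulae was 1.62 (SE 0.35, adjusted p = 0.00683), a call that was lost with replicate number as a block within stage (1.57). In morulae each KD library was below each control library, as in 22.9% of all genes tested, but Ccne1 was not called there. In blastocysts each KD library was above each control library. Hinfp, which activates H4 genes, fell by 1.12 from 2-cell embryos to morulae (adjusted p = 0.000256). That call was lost without 2-cell control replicate 4 (-0.97) or Morula control replicate 1 (-0.98). Another fall, that of the cyclin E2 gene Ccne2 (-1.0), was lost without 2-cell control replicate 5 (-0.97), Morula control replicate 1 (-0.80) or Morula control replicate 2 (-0.90). In KD blastocysts Hinfp had a change of 0.84 (SE 0.16, adjusted p = 0.00203). For Eri1, an exonuclease that trims histone mRNA, no change passed both limits.

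Among 13 genes for replacement histones outside the clusters, whose mRNAs are polyadenylated, 9 were tested in each KD comparison. In KD morulae 0 were higher and 2 lower, and the same counts held in KD blastocysts (2.53% and 7.69% of all genes tested were lower): H2afz and H2afv were the lower ones. H2afv, the gene for the second H2A.Z protein, fell by 2.93 in morulae (adjusted p = 2.93e-06) and by 1.86 in blastocysts (adjusted p = 7.95e-05). Whether the siRNAs act on H2afv as well was not tested. H2afx, an H2A variant of DNA repair whose gene makes both kinds of mRNA, rose by 2.81 from 2-cell to morula controls (adjusted p = 3.76e-06). H2afy (macroH2A) rose at both steps, by 2.47 and 1.39, and H1foo, the oocyte linker histone, fell by 4.91. The H3.3 genes H3f3a and H3f3b were called in no comparison. H3f3b had 589, 777, 933 and 899 in control morulae, above the sum of the 70 cluster genes in every such library.

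Histone chaperones, which carry histones to DNA, gave 6 rises and 2 falls among 15 genes tested from 2-cell to morula controls, where 32.1% of all genes tested rose and 30.1% fell. From morulae to blastocysts they gave 0 rises and 3 falls among 16, where 13.4% rose and 12.9% fell. Asf1a rose by 1.85 and Hat1, which acetylates new H4, by 2.65. The rise of Rbbp7 from 2-cell to morula controls lost its call with replicate number as a block (0.99). Npm2, the oocyte nucleoplasmin, fell by 3.40 and then by 1.87. Ipo4, an importer of H3 and H4, fell by 1.14 from morulae to blastocysts, a call lost without Blastocyst control replicate 1 (-0.99). Hira, which deposits H3.3, fell by 1.03, a call lost with FPKM as deposited (-0.99) and without Morula control replicate 8 (-0.86) or Blastocyst control replicate 6 (-0.99). In KD embryos limma called 0 chaperone genes at each stage, where 0.992% and 2.53% of all genes tested were higher and lower in morulae and 6.06% and 7.69% in blastocysts. At an unadjusted p under 0.05 were 0 of 15, 2 of 16 and 2 of 14 chaperone genes in 2-cell embryos, morulae and blastocysts, beside 701 of 12160, 3352 of 10989 and 5439 of 11828 genes.

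S phase genes were set beside the clusters because histone genes are active while DNA replicates. From 2-cell to morula controls, 9 of 20 rose and 1 fell, beside 32.1% and 30.1% of all genes tested, with a median of 0.82 beside 0.10. The rises included Tk1 (4.0), Tyms (3.77) and Rrm2 (2.14), which make precursors of DNA. The rise of Mcm7, of the replicative helicase, was 1.20 and came to 1.00 without 2-cell control replicate 2, which lost the call. The call for Lig1, another rise, was lost with replicate number as a block (0.93). From morulae to blastocysts 2 of 20 rose and 1 fell, beside 13.4% and 12.9% of all genes tested, with a median of -0.07 beside -0.03. In KD blastocysts 0 of 20 rose and 2 fell, beside 6.06% and 7.69% of all genes tested, with a median of -0.39 beside 0.00: Prim1, of the primase, fell by 1.89 (adjusted p = 5.81e-05) and Gins2, of the same helicase, by 1.81 (adjusted p = 6.67e-05). Prim1 had 82.2, 63.6, 52.8 and 52.5 in control and 16.4, 17.3, 14.6 and 15.0 in KD blastocysts, and Gins2 13.7, 16.9, 11.4 and 10.2 and 3.07, 3.00, 2.30 and 3.33. Neither overlapped. The KD effect in blastocysts minus that in morulae was -1.17 for Prim1 (adjusted p = 0.025, lost without Morula H2A.Z KD replicate 2 at -1.03) and -1.40 for Gins2 (adjusted p = 0.00217). In 2-cell embryos and morulae limma called 0 of the 20 after KD, with 2 and 7 at an unadjusted p under 0.05, beside 701 of 12160 and 3352 of 10989 genes.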

How the data were processed

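FPKM of 55335 genes were used as deposited: the authors aligned reads with STAR and computed FPKM with StringTie 2.1.4. Their notes also name featureCounts 1.6.2 and DESeq2 1.30.1. All 22 columns matched a sample (0 without one). Gene identifiers carried the GENCODE vM21 version for 54587 genes and for all 70 members.

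For each comparison, genes were kept where 3 or more of its libraries had FPKM no lower than 1. Values were scaled by the median of ratios and taken as log2(FPKM + 1). Tests were moderated t tests by limma 3.58.1 with a mean-variance trend (R 4.3.3), adjusted over all genes tested by Benjamini and Hochberg, and every p-value in the text comes from them. A gene was called at an adjusted p under 0.05 and a log2 fold change beyond 1 in either direction. For the difference of KD effects between stages, the adjusted p alone was used. The procedure was tried on simulated data first. Class sums are FPKM as deposited, without tests. Tables and figures used Python 3.11.15, numpy 2.4.6, pandas 2.3.3 and matplotlib 3.10.9.

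Named members are those called (up to 10 per comparison and direction) and the 3 most abundant of each class, and from the lists the called genes and 12 others taken for their function. Others were named after their values were seen. Members and lists were chosen with earlier results of these data known.

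Alternatives were pseudocount 0.1, no filter, no scaling, adjusted p alone, replicate number as a block, the range of replicate numbers as a term, each library left out, scaled sums, and sums without the most abundant member. Replicate numbers were not shown to pair libraries, nor was pairing excluded. Deviations of control and KD libraries had median correlations of 0.208 for same and -0.021 for different numbers in 2-cell embryos, 0.137 and -0.105 in morulae, and 0.044 and -0.0265 in blastocysts, with overlapping ranges. The best match had the same number for 3 of 3 KD and 2 of 3 control libraries in 2-cell embryos, and for 2 of 4 and 1 of 4 in blastocysts.

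Limits: oligo-dT captures a part of histone mRNA, and its share was not measured. Groups have 3 or 4 pools of embryos, and the pools say nothing of single embryos. FPKM give no counts, so noise at low values is unknown, and many members lie there. Near-identical paralogs share reads, and the rule for dividing them is not stated. The control treatment is unstated, so effects of injection cannot be told apart from those of H2A.Z loss. Stages differ in cell number. H2A.Z was reduced at the level of mRNA, and protein was not analysed here.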

Additional observations from a re-analysis of the deposited data

Results flagged for a closer look

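Single libraries that stood apart from the rest of their group were looked for with a Dixon ratio in members and list genes, and 21 of 296 groups tested had one. Chance alone gives about 1 in 20 groups, so some of these carry no meaning.

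Among the cluster genes, Hist1h1b had 4.03 (other libraries of the group 1.54 to 1.94) in 2-cell control 2, and Hist1h4i had 4.29 (other libraries of the group 7.27 to 7.80) in Morula control 7. Hist1h3g was at 3.12 (other libraries of the group 3.78 to 3.90) in Blastocyst control 6 and Hist1h3c at 0.524 (other libraries of the group 0.0820 to 0.146) in Morula control 1. Hist1h4n had 1.24 (other libraries of the group 2.28 to 2.48) in Blastocyst H2A.Z KD 1. The sum of all cluster genes was 111 (other libraries of the group 80.0 to 82.8) in 2-cell control 1, owing to the H2A sum of 82.6 (other libraries of the group 53.7 to 57.6). In morulae, the H2B sum was 7.07 (other libraries of the group 5.14 to 5.42) in Morula control 7 and the H3 sum 4.01 (other libraries of the group 2.43 to 2.66) in Morula control 1.

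Of the list genes, Lsm10 had 4.20 (other libraries of the group 5.36 to 5.45) in Morula control 2, and Tut7, which uridylates histone mRNA for decay, had 1.97 (other libraries of the group 3.81 to 3.98) there and 9.15 (other libraries of the group 11.6 to 12.1) in 2-cell control 4. In that 2-cell library Asf1a was at 67.5 (other libraries of the group 55.2 to 57.2), Hinfp at 13.5 (other libraries of the group 6.93 to 7.73) and H3f3a at 321 (other libraries of the group 223 to 235). Gins1, of the replicative helicase, had 23.1 (other libraries of the group 8.92 to 10.7) in 2-cell control 2. Tyms stood out in 3 libraries, with 12.4 (other libraries of the group 6.22 to 6.35) in 2-cell control 2, 274 (other libraries of the group 77.8 to 107) in Morula control 7 and 139 (other libraries of the group 39.3 to 54.8) in Blastocyst control 1. H2afy had 6.56 (other libraries of the group 4.92 to 5.10) in Morula control 1, and Tk1 had 143 (other libraries of the group 146.8 to 147.3) in Morula control 8.

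The KD effect differed between blastocysts and morulae by limma for 8 list genes. Tested were 20 genes of histone mRNA, 9 replacement histones, 16 chaperones and 20 S phase genes, and 5.43% of all genes tested had a higher and 6.32% a lower effect in blastocysts. In 4 of them the difference was positive: Ccne1 1.62, H2afv 1.04, Hira 0.99 and Hinfp 0.80. In the other 4 it was negative: Gins2 -1.40, Prim1 -1.17, Lsm10 -1.02 and Cdk2, the kinase of cyclin E, -0.87. Most of these calls lie near the limit and were lost with 1 library fewer, often with little change in the value. The call for Prim1 was lost without Morula H2A.Z KD replicate 2 (-1.03), and that for H2afv without Morula H2A.Z KD replicate 6 (0.99). For Cdk2 it was lost without any 1 of Morula control replicate 1 (-0.82), Morula control replicate 2 (-0.81), Morula H2A.Z KD replicate 6 (-0.72), Blastocyst control replicate 4 (-0.80) and Blastocyst H2A.Z KD replicate 1 (-0.83). Hira lost it without any 1 of Morula control replicate 7 (0.96), Morula control replicate 8 (0.81), Morula H2A.Z KD replicate 1 (1.02), Morula H2A.Z KD replicate 2 (0.97), Morula H2A.Z KD replicate 6 (0.99), Blastocyst control replicate 1 (1.00), Blastocyst control replicate 6 (0.95) and Blastocyst H2A.Z KD replicate 5 (0.86). Hinfp lost it without any 1 of Morula control replicate 2 (0.80), Morula control replicate 8 (0.67), Morula H2A.Z KD replicate 1 (0.82), Morula H2A.Z KD replicate 2 (0.83), Morula H2A.Z KD replicate 6 (0.76), Blastocyst control replicate 1 (0.76), Blastocyst control replicate 4 (0.77), Blastocyst control replicate 6 (0.77), Blastocyst H2A.Z KD replicate 1 (0.78) and Blastocyst H2A.Z KD replicate 6 (0.80). For Lsm10 the libraries were Morula control replicate 1 (-0.99), Morula control replicate 2 (-0.95), Morula H2A.Z KD replicate 2 (-0.85), Morula H2A.Z KD replicate 6 (-1.03), Blastocyst control replicate 1 (-0.96), Blastocyst control replicate 4 (-0.91) and Blastocyst H2A.Z KD replicate 5 (-0.86). Pseudocount 0.1 removed the call of Lsm10 (-0.92) and FPKM as deposited that of Cdk2 (-0.72). No single library removed the calls of Ccne1 and Gins2. Replicate number as a block within stage removed those of Ccne1 (1.57), Cdk2 (-0.88), H2afv (0.98), Hinfp (0.61) and Hira (0.68).

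Hist1h4h, an H4 gene picked out after its values were seen, lay on opposite sides at the early stages. The mean FPKM of KD minus control was -0.429 in 2-cell embryos and 0.381 in morulae, and the difference between these stages was not tested. The list genes Ccne1 and Hira also lay on opposite sides, wholly lower in KD morulae and wholly higher in KD blastocysts. Limma called neither in KD morulae, and did not call Hira in KD blastocysts.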

How the results depend on the processing

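Of the counts and ratios of sums of cluster genes under other choices, 203 stayed and 23 moved, and no count turned from rises to falls. A count moved if it changed beyond a factor of 1.5, or to or from 0. A ratio of sums moved if it shifted by its own SD or more, so a widely spread ratio could shift far and still stay. In KD blastocysts the count of members that rose, 1, was 3 with pseudocount 0.1, 4 with the adjusted p alone and 0 to 2 with each library left out. The count that fell, 0, was 1 with pseudocount 0.1, 2 with the adjusted p alone and 0 to 1 with each library left out. Of all 11828 genes tested there, 1107 rose and 1370 fell with pseudocount 0.1, and 1977 and 2344 with the adjusted p alone. From 2-cell to morula controls, the count that fell was 2 with pseudocount 0.1, 2 with the adjusted p alone and 0 to 1 with each library left out. Of all 13655 genes tested there, 4760 fell with pseudocount 0.1 and 5506 with the adjusted p alone. From morulae to blastocysts, 33 members rose with the adjusted p alone in place of 20, beside 3274 in place of 1583 of all 11849 genes tested. For the KD effect in blastocysts minus that in morulae, the count of lower members was 0 to 4 with each library left out.

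Replicate number as a replicate block gave 11 rises in place of 14, and 1 fall, from 2-cell to morula controls. It gave 1 rise in KD blastocysts and 0 calls in KD 2-cell embryos. Used within stage, it gave 2 lower members for the difference of KD effects.

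Sums depended on the most abundant member, and some ratios passed to the other side of 1. Without it, the ratio from 2-cell to morula controls was 0.701 for H1, 0.562 for H2B and 2.88 for H4. For H2B it was 12.3 from morulae to blastocysts and 0.895 in KD blastocysts, and for H4 0.817 in KD 2-cell embryos. Those for H1 in 2-cell embryos to morulae, H2B in KD blastocysts and H4 in KD 2-cell embryos were 2.33, 1.15 and 1.34 with it. The ratio for H1 in KD 2-cell embryos went from 1.02 to 0.937. In KD morulae, H4 went from 0.987 to 1.15, or 1.09 when scaled, and H2B from 0.932 to 1.03 when scaled. Calls of named genes were kept in 296 of 300 fits for members and in 688 of 739 for list genes, with none reversed.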
